A study of Mus musculus with 9 samples.

Results

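MC38-LM3b was compared with its parental line MC38-P at the transcript level, with 3 poly(A) RNA libraries of each line, 6 of the 9 libraries of the series. Libraries were assigned by the titles of the samples. The other 3 libraries, of the derivative MC38-LM3a, were used where the derivatives were compared and in an alternative model of all 9 libraries. MC38 is a mouse colon carcinoma line. MC38-P is the parental line, which the study labelled with GFP and luciferase before the selection. MC38-LM3b was obtained from liver metastases by repeated intrasplenic injection of these cells into immunocompetent C57BL/6 mice, and MC38-LM3a is a derivative of the same generation that was isolated separately. No drug or knockdown is named for these libraries, whose RNA came from harvested cell lines. The study calls the 3 libraries of a line biological replicates. They measure the spread within 1 selected population and not between independent selections.

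A carcinoma cell that grows in the liver has to leave the vessel, attach to the sinusoidal wall, live on the nutrients of the organ and withstand resident macrophages, NK cells and T cells. Class I molecules on its surface display peptides that the proteasome cuts and the TAP transporter carries into the endoplasmic reticulum. Interferons raise this display together with a large set of antiviral genes, through dedicated transcription factors. The gene groups below follow these steps, from the display of antigen to matrix, adhesion, metabolism and growth.

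Levels are TPM, a length-scaled share of each library with a fixed total, as deposited by the authors. Read depth is therefore unknown, and a gene given as 0 TPM is reported only as listed at 0. Between 10901 and 11132 genes per library reached 1 TPM in MC38-P and between 11154 and 11218 in MC38-LM3b. The labels call both lines epithelial cells of the colon. Of 14 markers of colon epithelium, 6 reached 1 TPM in at least 1 library (Cdx2, Krt20, Epcam, Krt8, Krt18 and Krt19), and their list summed to 2003 to 2318 TPM in MC38-P and 1584 to 1630 TPM in MC38-LM3b. No hepatocyte, lymphocyte or erythroid marker with a row in the files reached 1 TPM, and each of these lists summed to at most 0.58 TPM in any of the 6 libraries. Of 13 macrophage markers 5 had values and only Cd68 reached 1 TPM, with the list at 28.1 to 29.7 TPM in MC38-P and 40.1 to 45.6 TPM in MC38-LM3b. MC38-P replicate 3 stood apart from its replicates. Its genes lay a median of 0.22 lower on the log2 scale, and the deviation followed transcript length across 11105 genes of the same libraries (Spearman correlation -0.65). The MC38-LM3b libraries differed from each other by a median SD of 0.052 per gene, against 0.155 in MC38-P.

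Tests were run on log2(TPM + 1) for the 11222 genes that reached 1 TPM in 3 or more of the 6 libraries. Over these genes the median log2 fold change of MC38-LM3b over MC38-P was 0.21, and it was 0.13 without MC38-P replicate 3. The 100 most abundant genes took 31.6 to 36.2% of all TPM in MC38-P and 28.9 to 29.3% in MC38-LM3b, so part of the shift can be the fixed total of the unit, which was not tested. Every fold change below is therefore the log2 fold change minus this median, named the relative log2 fold change, and it understates the change of genes with low values. The relative log2 fold change passed an adjusted p-value of 0.05 for 2027 genes higher in MC38-LM3b (18.1% of those tested) and 2776 lower (24.7%). With a relative log2 fold change above 1, which is 2-fold, 181 genes were higher (1.61%) and 228 lower (2.03%), and these are the differentially expressed genes (DEGs). The counts of each gene list below are to be read against these shares. Without the subtraction of the median the split was 311 higher and 134 lower among DEGs, and 4752 against 1441 at any size of change. Without MC38-P replicate 3, 3234 genes were higher at any size. Cultures were sequenced whole, so a change in every cell and a change in the share of cells that express a gene cannot be told apart.

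**Figure D1:**
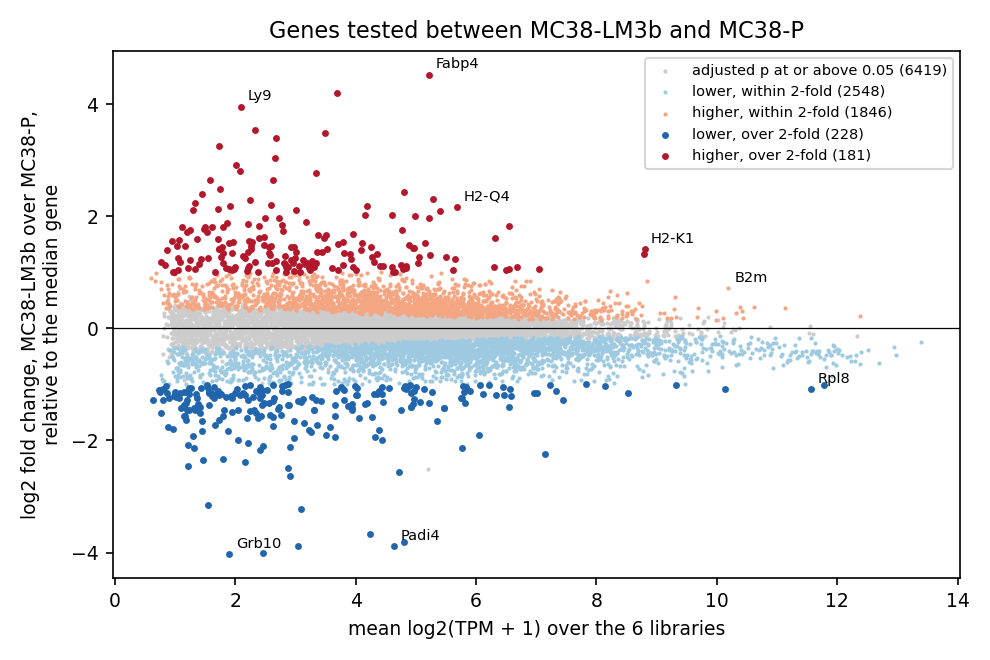
Mean level of each of the 11222 tested genes over the 6 libraries, in log2(TPM + 1), against its relative log2 fold change between MC38-LM3b and MC38-P. Each point is 1 gene. The 181 higher and 228 lower DEGs are drawn in dark red and dark blue. Among abundant genes, Rpl8 lies under 0, and H2-K1 and B2m lie above it.

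With a pseudocount of 1 the largest rise was that of Fabp4, while with a pseudocount of 0.1 Fabp4 (4.696) ranked seventh, after Ly9 (7.05), Crip1, Fcho1, Gimap9, Samsn1 and Tnfrsf26 (4.74). Fabp4 encodes a fatty acid binding protein of adipocytes and macrophages. It had 4.64, 7.76 and 6.71 TPM in the MC38-P libraries and 190, 187 and 198 TPM in MC38-LM3b, a relative log2 fold change of 4.52 (SE 0.14, adjusted p = 9.35e-09). Tnfrsf26, a TNF receptor family member, went from 2.04, 2.34 and 1.15 TPM to 56.5, 59.3 and 58.8 TPM. In both genes the lowest MC38-LM3b library was far above the highest MC38-P library. Ly9 encodes SLAMF3, a receptor of hematopoietic cells that binds itself, and it is the gene the study followed up. Ly9 was listed at 0.04, 0 and 0 TPM in MC38-P and at 17.9, 16.1 and 17.6 TPM in MC38-LM3b (relative log2 fold change 3.96, adjusted p = 9.35e-09). Crip1, a small LIM-domain protein, was listed at 0 in every MC38-P library and had 13.7, 12.4 and 5.88 TPM in MC38-LM3b (adjusted p = 3.132e-06), so replicate 3 was low for its group. Here the MC38-LM3b libraries differed among themselves, but each was above every MC38-P library.

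Of the other large rises, several are best known from leukocytes. Values existed for 5 of 13 macrophage and 4 of 15 lymphocyte markers, of which only Cd68 reached 1 TPM. The part of such cells in these rises was not tested. The tyrosine phosphatase Ptpn7 went from 1.67 to 2.41 TPM in MC38-P to 38.8 to 40.4 TPM in MC38-LM3b, the tyrosine kinase Fes from 0.28 to 0.49 TPM to 10.6 to 11.4 TPM, and the adaptor Grap from 2.07 to 2.96 TPM to 26.7 to 28.5 TPM. Gimap9, a GTPase of lymphocytes, went from at most 0.18 TPM to 6.49 to 7.91 TPM, and Arhgap9, a GTPase activating protein, from 0.40 to 0.59 TPM to 10.5 to 11.9 TPM. Fcho1, an endocytic adaptor, was at 0.26 to 0.51 TPM in MC38-P and 17.1 to 18.2 TPM in MC38-LM3b. Ctla2a, an inhibitor of cathepsins, was at 0.55 to 1.08 TPM and 20.6 to 22.03 TPM, and its paralogue Ctla2b at 1.45 to 1.69 TPM and 9.10 to 10.2 TPM. These paralogues are near-identical, and reads could be split between them. The uncharacterized gene 1500009L16Rik was also among the 12 largest rises, with a relative log2 fold change of 3.03. No library of MC38-P reached any library of MC38-LM3b in these genes. Of 61 genes listed for hematopoietic signaling, 22 were tested, of which 11 were higher and 3 lower. The shares over all tested genes were 18.1% and 24.7%. Members that passed the filter only through MC38-LM3b, such as Ly9, had to differ. Across the alternatives 4 to 14 were higher and 2 to 13 lower, with a median from -0.07 to 0.48, against 0.27 in the main test. Apart from Ly9 and Ptpn7 none of the 22 rose over 2-fold, and Plcg2 fell, against 1.61% and 2.03% over all tested genes. Ly9 was the only tested member of 11 listed SLAM family genes.

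**Figure D2:**
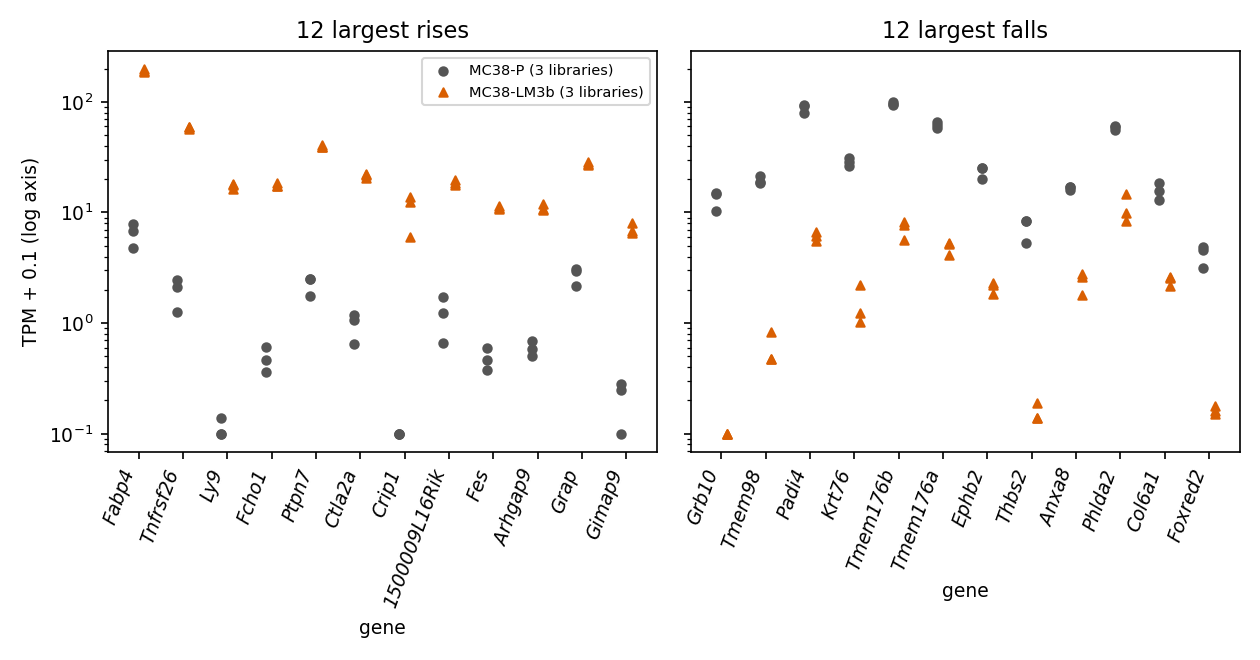
TPM plus 0.1 on a log axis for the 12 genes with the largest rise and the 12 with the largest fall among DEGs, ordered by size. Each circle is 1 MC38-P library and each triangle 1 MC38-LM3b library, 3 of each. The groups do not overlap in any of these genes, and Crip1 shows the widest spread within MC38-LM3b.

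The largest falls were of Grb10, Tmem98, Padi4, Krt76, Tmem176b and Tmem176a. Grb10, an adaptor that restrains insulin and IGF receptor signaling and is imprinted, had 14.6, 14.8 and 10.3 TPM in MC38-P and was listed at 0 in all 3 MC38-LM3b libraries (adjusted p = 3.115e-08). Tmem98, a membrane protein, went from 21.4, 18.8 and 18.4 TPM to 0.37, 0.37 and 0.73 TPM. Padi4, which converts arginine of histones to citrulline, went from 92.3, 92.6 and 79.9 TPM to 6.02, 5.46 and 6.56 TPM, a relative log2 fold change of -3.88 (SE 0.10, adjusted p = 6.788e-09). Each of these genes had over 10 TPM in every MC38-P library and less than that in every MC38-LM3b library. Krt76, an epithelial keratin, fell from 26.4 to 31.1 TPM to 0.92 to 2.09 TPM, and the receptor Ephb2 from 20.1 to 25.3 TPM to 1.72 to 2.22 TPM. Thbs2, a secreted thrombospondin, fell from 5.18 to 8.30 TPM to 0.04 to 0.09 TPM. Anxa8, an annexin, and Phlda2, an imprinted growth regulator, had relative log2 fold changes of -2.64 and -2.56. Foxred2, an enzyme of endoplasmic reticulum quality control, was at 3.08 to 4.78 TPM in MC38-P and at most 0.08 TPM in MC38-LM3b.

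Tmem176a and Tmem176b lie head to head on chromosome 6 and fell together. Tmem176b had 96.2, 93.1 and 99.95 TPM in MC38-P and 5.55, 7.59 and 8.09 TPM in MC38-LM3b, and Tmem176a had 57.7, 62.1 and 66.0 TPM and 4.02, 5.16 and 5.14 TPM. The relative log2 fold changes were -3.82 (SE 0.12) and -3.66 (SE 0.11). Both genes encode related membrane proteins of dendritic cells and other antigen-presenting cells. Their nearest start sites are 108 bases apart, and these bases, which both genes have in front of them, are shown on the plus strand of GRCm38.p6 (RefSeq, chr6:48841375-48841482). Capitals mark the match to the letters GGGNNTTCC, read on the opposite strand.
Tmem176b to Tmem176a: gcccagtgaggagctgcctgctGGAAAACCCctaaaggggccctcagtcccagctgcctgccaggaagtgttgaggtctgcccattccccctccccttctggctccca

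By a rule chosen after the values were seen, 5 genes had at least 5 TPM in every MC38-LM3b library and under 0.5 TPM in every MC38-P library, namely Crip1, Fes, Ly9, As3mt and Gimap9. As3mt encodes an arsenite methyltransferase and went from 0.16 to 0.46 TPM to 7.34 to 7.84 TPM. The opposite pattern was met by 2 genes, Grb10 and Thbs2. All 7 lay on different chromosomes.

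The study also named Runx1, Junb, Polr2a and Ikzf1. The transcription factor Runx1 had 10.3, 9.31 and 7.03 TPM in MC38-P and 14.3, 14.2 and 14.8 TPM in MC38-LM3b, and its lines did not overlap. Its relative log2 fold change was 0.45 (SE 0.13, adjusted p = 0.02008), under 2-fold. The adjusted p-value was above 0.05 under 4 of the 16 alternatives, up to 0.08651, and 3 of the 4 left out 1 MC38-LM3b library each. Junb, an AP-1 subunit, had 86.0 to 97.2 TPM and 79.7 to 87.6 TPM, with a relative log2 fold change of -0.37 (adjusted p = 0.002247) and values that overlap between the lines. Without the median subtraction its log2 fold change was -0.16 (adjusted p = 0.09051). Polr2a, the large subunit of RNA polymerase II, did not pass (0.13, adjusted p = 0.42), although without the median subtraction its log2 fold change of 0.34 did (adjusted p = 0.03898). Ikzf1, a lymphoid factor, was listed at 0.02 TPM or less in all 6 libraries and was not tested.

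Most tested genes of class I antigen presentation were higher in MC38-LM3b. Of 31 genes listed, 26 were tested, 21 were higher in MC38-LM3b and 0 were lower, with 8 over 2-fold, and the median relative log2 fold change was 0.57. The share of higher genes was 18.1% over all tested genes, whose median is 0 by construction. Across the alternatives 19 to 24 members were higher and at most 1 was lower. The list and the next one had been seen to rise in an earlier analysis of these libraries, so their counts are not independent evidence of the direction. H2-K1 and H2-D1, the classical heavy chains, were abundant in both lines. H2-K1 had 255, 253 and 254 TPM in MC38-P and 806, 799 and 748 TPM in MC38-LM3b (relative log2 fold change 1.41, SE 0.05, adjusted p = 2.843e-08), and H2-D1 had 280, 249.9 and 255 TPM and 765, 759 and 746 TPM. Every MC38-LM3b library was higher than every MC38-P library by more than the spread within either line. H2-Q4, a nonclassical heavy chain, went from 24.04, 22.2 and 18.7 TPM to 118, 117 and 114 TPM, with a relative log2 fold change of 2.17. Heavy chain genes are near-identical in places, so reads may have been split between them. B2m, the light chain shared by all of them, went from 808 to 900 TPM to 1589 to 1651 TPM, a relative log2 fold change of 0.72 (SE 0.05).

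Genes of the steps that make and load the peptides were mostly higher too. Psmb8 and Psmb9 are the interferon-inducible catalytic subunits of the immunoproteasome. Psmb8 went from 43.6, 36.9 and 43.9 TPM to 155, 146 and 145 TPM, and Psmb9 from 4.4, 8.52 and 8.70 TPM to 41.9, 44.9 and 36.0 TPM. The other members of this role, Psmb10, Psme1 and Psme2, were higher by less than 2-fold, so 5 of 5 were higher. Tap1 and Tap2, the subunits of the peptide transporter, had relative log2 fold changes of 1.33 (SE 0.11) and 1.53 (SE 0.09). Tap1 went from 7.15 to 8.81 TPM to 23.2 to 26.01 TPM. Nlrc5, the factor that switches on class I genes, went from 4.16, 3.41 and 2.63 TPM to 17.9, 17.4 and 18.0 TPM (relative log2 fold change 1.90, adjusted p = 2.944e-06). The chaperone Canx and the factor Irf1 did not pass.

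Sequence upstream of the heavy chain genes is shown because these genes rose together and 5 of the 8 higher heavy chain genes hold the same letters. The 300 bases from 250 before to 50 after the start site were taken from RefSeq on GRCm38.p6 and read on both strands for 2 short patterns. The pattern GAANNGAAA resembles the interferon-stimulated response element, and GGGNNTTCC resembles the site bound by NF-kappaB. Each line below is the 41 bases around the interferon-like match, 5′ to 3′ on the gene's own strand, with both kinds of match in capitals. All lie on chromosome 17, H2-K1 at chr17:34000423-34000463 (minus), H2-D1 at chr17:35262918-35262958, H2-Q4 at chr17:35379438-35379478, H2-Q6 at chr17:35424672-35424712 and H2-M3 at chr17:37270107-37270147 (all plus).
H2-K1: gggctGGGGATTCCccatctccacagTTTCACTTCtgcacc
H2-D1: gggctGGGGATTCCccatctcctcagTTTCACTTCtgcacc
H2-Q4: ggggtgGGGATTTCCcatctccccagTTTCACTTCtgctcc
H2-Q6: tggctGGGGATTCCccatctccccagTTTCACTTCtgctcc
H2-M3: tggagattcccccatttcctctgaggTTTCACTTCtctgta

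H2-D1 shared 40 of the 41 bases with H2-K1, H2-Q6 shared 38, H2-Q4 shared 37 and H2-M3 shared 17, compared position by position without gaps. All 5 genes were higher in MC38-LM3b, with relative log2 fold changes of 1.41 for H2-K1, 1.32 for H2-D1, 2.17 for H2-Q4, 0.55 for H2-Q6 and 0.89 for H2-M3. The heavy chain genes H2-T22 (0.87) and H2-T23 (0.79) were also higher and hold neither pattern, and H2-M3 holds only the interferon-like one. Psmb9 and Tap1 are transcribed away from each other, and both rose over 2-fold. The 225 bases between their start sites are shown on the plus strand (chr17:34187331-34187555) and hold neither pattern, which says only that these letters are not in this window.
Psmb9 to Tap1: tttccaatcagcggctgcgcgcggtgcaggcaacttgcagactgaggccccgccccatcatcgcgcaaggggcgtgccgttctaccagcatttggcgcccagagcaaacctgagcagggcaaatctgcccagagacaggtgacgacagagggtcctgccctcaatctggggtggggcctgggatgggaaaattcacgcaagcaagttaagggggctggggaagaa

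Most tested interferon response genes were also higher in MC38-LM3b. Of 85 genes listed, 66 were tested, 41 were higher and 3 lower, with 14 over 2-fold higher and 1 over 2-fold lower, and the median relative log2 fold change was 0.48. Across the alternatives 34 to 51 were higher and 3 to 5 lower. All tested genes had shares of 18.1% higher and 24.7% lower, and 1.61% and 2.03% over 2-fold. Among antiviral enzymes 6 of 8 were higher. Oas1a encodes a synthetase of oligoadenylate, a second messenger of the antiviral response. Oas1a went from 0.85, 1.18 and 1.38 TPM to 5.84, 6.57 and 6.15 TPM (relative log2 fold change 1.55, SE 0.13). Oas1a shares sequence with its neighbours in the Oas1 cluster. Among the sensors of foreign RNA and DNA 5 of 7 were higher, and Ifih1, which detects long double-stranded RNA, went from 3.74, 3.76 and 2.84 TPM to 13.01, 13.7 and 12.3 TPM. Both genes were separated between the lines.

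Among the listed interferon-inducible GTPases 7 of 9 were higher, with Gbp7 (1.46), Igtp (1.16) and Irgm2 (1.01) over 2-fold. Ifi47, a further gene of this kind not counted in the role, rose by 1.447. Irgm2 fell under that limit in 5 alternatives, among them correction for GC content and length and without MC38-P replicate 2 or MC38-LM3b replicate 1. Igtp had 2.52 to 3.06 TPM in MC38-P and 8.66 to 9.02 TPM in MC38-LM3b. Of the factors 7 of 11 were higher. Stat2, a factor of the type I response, had a relative log2 fold change of 0.70 (SE 0.17), and Irf8 reached the 2-fold limit with 1.00 (SE 0.08) but fell under it in 6 alternatives. Of the receptors and their kinases 3 of 8 were higher, all by less than 2-fold. Among effectors 13 of 23 were higher. Sp100, a nuclear body protein, went from 6.00, 4.68 and 4.33 TPM to 19.6, 19.4 and 23.7 TPM, and the mitochondrial protein gene Ifi27 from 55.0 to 59.5 TPM to 134 to 147 TPM, within 2-fold in 1 alternative. The ubiquitin-like modifier Isg15 was higher by 0.60 and its activating enzyme Uba7 by 1.35.

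The 3 lower genes were the neighbours Ifitm1, Ifitm2 and Ifitm3 on chromosome 7, which encode membrane proteins that block viral entry. Ifitm1 fell from 296, 284 and 276 TPM to 67.8, 67.5 and 72.6 TPM, a relative log2 fold change of -2.24 (SE 0.06, adjusted p = 6.788e-09). Ifitm2 and Ifitm3 had -0.55 (SE 0.06) and -0.39 (SE 0.06). These paralogues also share sequence.

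**Figure D3:**
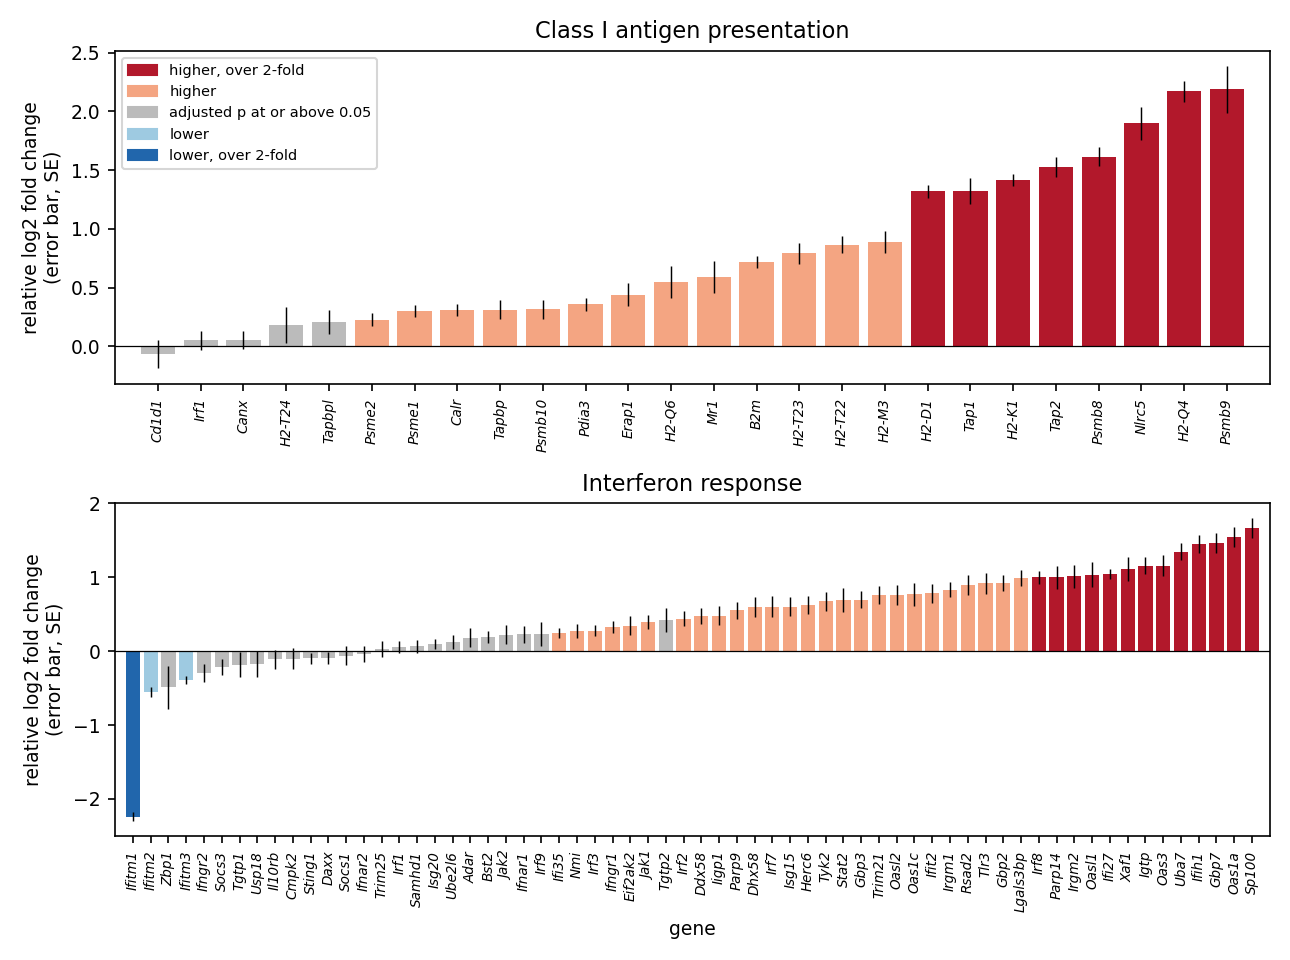
Relative log2 fold change of MC38-LM3b over MC38-P for the tested genes of class I antigen presentation (26, upper panel) and of the interferon response (lower panel, not every tested gene drawn), ordered by size. Bars are limma estimates with SE from 3 libraries a line, coloured by call. No class I gene is lower, and Ifitm1 is the only bar under -1.

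Upstream sequence is shown for 5 interferon genes that rose over 2-fold and hold the interferon-like pattern before the start site. Oasl1 was within 2-fold without MC38-LM3b replicate 2 or replicate 3. Each line is the match in capitals with 15 bases on either side, on the gene's strand of GRCm38.p6. Sp100 lies at chr1:85649933-85649971, Gbp7 at chr3:142530274-142530312, Igtp at chr11:58199502-58199540, Irgm2 at chr11:58214893-58214931 and Oasl1 at chr5:114923091-114923129, all on the plus strand.
Sp100: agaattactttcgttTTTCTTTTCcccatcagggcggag
Gbp7: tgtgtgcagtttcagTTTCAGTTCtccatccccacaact
Igtp: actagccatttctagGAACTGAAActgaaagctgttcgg
Irgm2: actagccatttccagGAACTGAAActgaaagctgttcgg
Oasl1: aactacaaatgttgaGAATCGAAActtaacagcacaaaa

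Over all tested genes with a promoter entry, 660 of 9042 (7.3%) held the interferon-like pattern in the 300 bases. Of the genes over 2-fold higher in MC38-LM3b, 23 of 133 (17.3%) held it, and of those over 2-fold lower 10 of 157 (6.4%). Among interferon genes it was held by 13 of 34 (38.2%) that were higher and 4 of 21 that were not higher, and among the higher class I genes by 6 of 19 (31.6%). The NF-kappaB-like pattern was held by 8.8% of all, 9.0% of the higher DEGs and 7.0% of the lower DEGs. The letters TGTGGT, which RUNX factors bind, were held by 14.5%, 19.5% and 10.8%. These are counts of letters, with no test, and the lists were chosen with earlier results known. No promoter entry was found for Ly9, Fabp4, Nlrc5, Tap2, Ifi27, Parp14 and Il15.

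Surface and secreted signals to immune cells included genes that rose and genes that fell over 2-fold. Of 19 checkpoint and ligand genes tested, 7 were higher and 3 lower, and 4 rose and 2 fell over 2-fold. The shares over all tested genes were 18.1% higher and 24.7% lower, and 1.61% and 2.03% over 2-fold. Ulbp1, a ligand of the activating NK cell receptor NKG2D, went from 17.4, 19.4 and 10.6 TPM to 86.5, 92.6 and 96.7 TPM (relative log2 fold change 2.30, SE 0.17). Cd274 encodes PD-L1, the ligand of PD-1, and went from 2.24, 1.65 and 1.27 TPM to 6.96, 6.54 and 5.82 TPM (1.25, SE 0.15, adjusted p = 8.421e-05). Havcr2, which encodes TIM-3, and Tnfrsf14, the receptor HVEM, rose by 1.35 and 1.30. In the opposite direction, Nt5e, the ecto-enzyme CD73 that makes adenosine, fell from 9.11, 8.03 and 6.36 TPM to 1.87, 1.22 and 1.30 TPM (-2.05, SE 0.16), and Cd24a, a sialylated surface protein, had -1.07, which was within 2-fold in 3 alternatives. Thus ligands that activate and ligands that restrain lymphocytes were both among the genes that rose.

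Of 38 chemokine, cytokine and receptor genes tested, 13 were higher and 9 lower, and 4 rose and 0 fell over 2-fold. Over all tested genes 18.1% were higher and 24.7% lower, and 1.61% and 2.03% over 2-fold, so the count of lower members is near its share. Il15, a growth factor of NK and memory T cells, went from 0.77, 0.73 and 0.74 TPM to 5.09, 5.03 and 5.24 TPM, and its presenting receptor chain Il15ra from 12.9, 12.1 and 9.08 TPM to 34.1, 28.8 and 30.7 TPM. The ligand and the chain that presents it thus both rose, by 1.599 and 1.18. Cxcl16, a chemokine made as a membrane protein, rose by 1.54 and the neutrophil chemokine Cxcl1 by 1.10. Casp1, the protease that matures IL-1 family cytokines, went from 6.62 to 7.92 TPM to 36.2 to 39.3 TPM, a relative log2 fold change of 2.02 (SE 0.10). Of 20 NF-kappaB pathway genes 2 were higher and 4 lower, or 10 higher and 1 lower without the median subtraction, and 0 passed 2-fold, which at shares of 1.61% and 2.03% over all tested genes says nothing particular about the pathway. Nfkb1 had 0.49 (adjusted p = 0.003025).

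Matrix genes were divided. Of 57 matrix genes tested, 18 were higher and 24 lower, 3 over 2-fold higher and 10 over 2-fold lower, with a median of -0.08. All tested genes had shares of 18.1% higher and 24.7% lower, and 1.61% and 2.03% over 2-fold. Without the median subtraction 25 were higher and 16 lower, with a median of 0.13. Of 16 collagen genes, 5 were higher and 8 lower, and 4 fell over 2-fold, namely Col6a1, Col6a2, Col1a1 and Col3a1. Col6a1 fell from 18.3, 15.4 and 12.7 TPM to 2.53, 2.45 and 2.07 TPM (relative log2 fold change -2.50, SE 0.14), and its partner Col6a2 had -1.80. Col3a1, a fibrillar collagen, was the most abundant of them and fell from 154, 145 and 123 TPM to 61.5, 57.0 and 64.2 TPM. Thbs2 and Thbs3, thrombospondins, had -3.15 and -2.33, and Fn1, the fibronectin gene, -1.32. The markers of stellate cells and fibroblasts, which include Col1a1 and Col3a1, summed to 137 to 175 TPM in MC38-P and 66.9 to 73.6 TPM in MC38-LM3b, and the part of such cells was not tested. Fbln1 and Matn2 also fell over 2-fold and lie on chromosome 15, whose genes were lower as a whole. The basement membrane role had 4 of 9 genes higher and 1 lower. Nid1, a basement membrane linker, had 322 TPM on average in MC38-P and 665 TPM in MC38-LM3b, a relative log2 fold change of 0.85, and Col4a1 had 0.59. The 3 rises over 2-fold were Emilin1 (2.02), a glycoprotein of elastic fibres, the proteoglycan core gene Srgn (1.63) and the collagen hydroxylase P4ha3 (1.11).

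Among proteases and their inhibitors, Serpinf1 (-2.34), Serpine2 (-1.81) and the protease Mmp19 (-1.63) fell, and Serpinb2, an inhibitor of plasminogen activators, rose from 14.5 to 19.7 TPM to 54.3 to 55.7 TPM (1.44, SE 0.11). Of 47 adhesion genes, 17 were higher and 10 lower (10 to 23 and 6 to 20 across the alternatives), and 2 rose and 1 fell over 2-fold. Over all tested genes 18.1% were higher and 24.7% lower, and 1.61% and 2.03% over 2-fold. Only the counts of lower adhesion genes are near these shares. Vcam1, which binds the integrin VLA-4 of leukocytes, went from 9.27, 9.14 and 7.95 TPM to 28.0, 28.9 and 29.1 TPM, and Itgb2, the leukocyte integrin beta chain, from 13.99 to 15.5 TPM to 36.3 to 38.1 TPM. The tetraspanin Cd81 had -1.12 and was within 2-fold in 3 alternatives. Both listed adhesion genes that rose over 2-fold are best known from leukocytes and activated endothelium. Sele, an endothelial adhesion gene not counted in the list, also rose (1.505). Of the endothelial markers only Cdh5 and Egfl7 reached 1 TPM, with their list at 15.8 to 20.6 TPM in MC38-P and 15.5 to 17.1 TPM in MC38-LM3b.

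Of 9 epithelial genes that passed the filter, 9 were lower in MC38-LM3b and 4 fell over 2-fold. Members that passed only through MC38-P, such as Cdx2, had to differ. Among all 23 members in the files, tested with no filter, 14 were lower and 0 higher, with a median of -0.15. Of the 9, 5 lie on chromosome 15, and without that chromosome 4 of 4 were lower. Epcam, the epithelial adhesion molecule, went from 6.05, 4.93 and 6.31 TPM to 2.40, 2.35 and 1.87 TPM (relative log2 fold change -1.28, SE 0.14). Cdx2, the intestinal homeobox factor, went from 2.14, 2.86 and 1.80 TPM to 0.56, 0.39 and 0.28 TPM, and Elf3, an epithelial ETS factor, had -1.12, within 2-fold in 1 alternative. Of 20 mesenchymal genes 4 were higher and 8 lower, a balance that turned to 9 higher and 3 lower without the median subtraction and to 7 and 3 with no filter. None rose over 2-fold in the main test, while Fn1, Acta2 (-1.23) and S100a4 fell. In that test 18.1% of all tested genes were higher and 24.7% lower, and 1.61% and 2.03% over 2-fold. The count of higher mesenchymal genes and their lack of rises over 2-fold are near these shares. S100a4, a calcium-binding protein gene at 1392 to 1624 TPM in MC38-P and 804 to 872 TPM in MC38-LM3b, had -1.07 and was within 2-fold in 6 alternatives. Snai2, a repressor of epithelial genes, was higher by 0.94.

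Of 34 axon guidance genes tested, 5 were higher and 14 lower, with 4 to 11 higher and 7 to 19 lower across the alternatives. Over 2-fold 3 fell and 0 rose, against 2.03% lower and 1.61% higher over all tested genes. Slit1, an axon guidance gene not counted in the list, rose by 1.007 and was past both limits in 10 of 15 alternatives. Ephb2, a receptor of ephrins in intestinal crypts, had a relative log2 fold change of -3.23, the related Ephb3 had -1.10, within 2-fold in 2 alternatives, and the semaphorin Sema3f -1.36. Tcf7, a Wnt effector and target, fell from 24.1, 22.9 and 19.2 TPM to 6.02, 5.95 and 5.92 TPM (-1.93, SE 0.11), the only Wnt gene of 27 past 2-fold, a share near that over all tested genes. Ccnd2, a G1 cyclin, fell from 14.5, 14.8 and 11.2 TPM to 3.54, 3.60 and 2.85 TPM (-1.95).

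Of 46 growth factor genes tested, 11 were higher and 11 lower, or 21 higher and 6 lower without the median subtraction. Igf1r, the IGF1 receptor, rose from 8.19, 6.85 and 5.04 TPM to 24.7, 24.3 and 24.3 TPM (relative log2 fold change 1.54, SE 0.15), while Grb10, which binds and restrains this receptor, was listed at 0. These were the only rise over 2-fold in the list and, with Gdf15 (-1.23), a stress-induced ligand, the 2 falls over 2-fold, counts near the shares of 1.61% and 2.03% over all tested genes. Plcg2, a phospholipase of immune receptors, fell from 14.8 to 18.1 TPM to 4.67 to 5.24 TPM (-1.73), and Prkcb, a kinase that the product of phospholipase C activates, rose from 3.15 to 3.97 TPM to 10.98 to 11.7 TPM (1.21). Ankrd1, a target of YAP, went from 11.1, 10.5 and 9.25 TPM to 71.2, 66.9 and 69.7 TPM (2.43, SE 0.09), whereas Ccn4 (-1.45, on chromosome 15) and the factor Tead2 (-1.35) of the same list fell. The TGF-beta-induced matrix gene Tgfbi had -1.61 and the Notch coactivator Maml2 rose by 1.42. Of 12 imprinted genes tested, Peg3 rose from 16.6, 15.2 and 10.4 TPM to 66.9, 65.6 and 69.5 TPM, and Grb10 and Phlda2 fell.

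Fatty acid handling was split within 1 gene family. Fabp4 rose by 4.52, and Fabp5, the epidermal member of the family, which also lies on chromosome 3, fell from 105, 119 and 130 TPM to 36.8, 34.5 and 35.7 TPM (relative log2 fold change -1.90, SE 0.09). Fabp5 was thus the more abundant of the pair in MC38-P and Fabp4 in MC38-LM3b, in TPM and in every library. The scavenger receptor gene Scarf1 (1.82) and the lipoprotein receptor gene Lrp1 (1.09, within 2-fold in 3 alternatives) also rose. Of 41 lipid handling genes tested, 7 were higher and 13 lower (6 to 16 and 8 to 15 across the alternatives), with a median of -0.07. Over all tested genes 18.1% were higher and 24.7% lower.

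Genes of lipid synthesis were lower by small amounts. Of 38 genes of sterol and fatty acid synthesis, 28 were lower and 1 higher (16 to 33 lower across the alternatives), with a median of -0.42, and the sterol enzymes had 16 of 19 lower. Sqle, the squalene epoxidase gene, fell from 194, 185 and 159 TPM to 95.5, 93.9 and 87.7 TPM (-1.15, SE 0.08), and it lies on chromosome 15. Without that chromosome 26 of 36 were lower. Among all tested genes 24.7% were lower and 18.1% higher. Msmo1 (-0.67) and Cyp51 (-0.91), further enzymes of the path, were lower by less than 2-fold.

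Of 52 genes of amino acid transport and metabolism, 33 were lower and 6 higher, with 24 to 36 lower and 3 to 14 higher across the alternatives. The serine and folate role had 12 of 14 lower (10 to 13 across the alternatives). Bcat1, which takes the amino group from branched-chain amino acids, fell from 41.0, 41.4 and 35.6 TPM to 11.5, 10.9 and 9.72 TPM (-1.99, SE 0.10), and Ass1, an enzyme of arginine synthesis, from 45.8, 46.0 and 43.2 TPM to 19.8, 18.4 and 19.2 TPM (-1.40). Aldh1l2 (-1.25) and Cbs (-1.06), enzymes of folate and sulfur amino acid metabolism, also fell, Cbs within 2-fold in 3 alternatives, up to -0.85 and among them without MC38-LM3b replicate 1. The transporter gene Slc38a4 rose from 1.35 to 1.87 TPM to 10.5 to 11.4 TPM (1.97), although it lies on chromosome 15. Of 47 glutathione and antioxidant genes, Gsta1 (-1.18) and Mgst1 (-1.09) fell and Gstm7 (1.05) rose, all glutathione transferases. Each fell under 2-fold in 2 alternatives, Gsta1 (-0.976) and Gstm7 (0.985) among others without MC38-P replicate 3, and Mgst1 without the median subtraction and with no filter. The cystine transporter gene Slc7a11 had -0.89. In this list 10 were higher and 16 lower, which turned to 16 higher and 10 lower without the median subtraction. The shares over all tested genes were 18.1% higher and 24.7% lower in the main test, so these counts say little particular about the list.

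Abundant housekeeping groups shifted down by less than 2-fold. Of 77 ribosomal protein genes, 74 were lower with a median of -0.45, and their share of TPM was 20.8, 21.7 and 24.6% in MC38-P and 18.2, 18.4 and 18.5% in MC38-LM3b. Rpl8 (-1.09) and Rpl30 (-1.01) were past 2-fold, both on chromosome 15. Quantile normalization left 29 lower and a median of -0.09, so the size of this shift depends on the scaling. After correction for GC content and length 59 were lower with a median of -0.28. Of 75 respiratory chain genes 54 were lower with a median of -0.25, 29 were lower with a median of -0.08 after correction for GC content and length, and 16 were lower with a median of -0.05 without the median subtraction. These are short transcripts, and the deviation of MC38-P replicate 3 followed length. Without that library 71 ribosomal and 43 respiratory genes were lower, and the part of length in the shift was not tested further. Of 19 DNA replication genes, 15 were lower with a median of -0.48 (12 to 18 across the alternatives), among them Mcm3, a subunit of the replicative helicase, from 237 to 252 TPM to 171 to 178 TPM. Of 16 mitosis genes 0 were higher and 6 lower with a median of -0.01, which turned to 8 higher and 2 lower with a median of 0.2 without the median subtraction. In the main test 24.7% of all tested genes were lower and 18.1% higher.

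Chaperones of different compartments moved in opposite directions. Of 14 unfolded protein response genes, 12 were higher and 0 lower (11 to 13 higher across the alternatives), with a median of 0.42. Sdf2l1 and Dnajb9, chaperones of the endoplasmic reticulum, had 1.06 and 1.01, and Sdf2l1 went from 78.1, 82.2 and 92.0 TPM to 205, 200 and 207 TPM. Dnajb9 was within 2-fold in 5 alternatives and Sdf2l1 in 1. Of 10 heat shock genes, which serve the cytosol and mitochondria, 8 were lower and 0 higher (6 to 9 lower across the alternatives), with a median of -0.50, and the mitochondrial pair Hspd1 and Hspe1 had -0.70 and -0.77. Lysosomal genes had 10 of 20 higher and 2 lower (9 to 16 higher across the alternatives). For each of these groups, the shares over all tested genes were 18.1% higher and 24.7% lower.

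Further genes changed outside these groups. Ctso, a cathepsin, had a mean of 12.97 TPM in MC38-P and 33.6 TPM in MC38-LM3b, a relative log2 fold change of 1.11. Bok (-1.02), a BCL2 family member, Batf3 (-1.004), an AP-1 family factor, Csrp2 (-1.17), a LIM protein, and Arhgef19 (-1.13), a guanine nucleotide exchange factor, fell, but were within 2-fold in 5, 7, 3 and 1 alternatives. Below 2-fold, Procr (0.74), the protein C receptor gene, B3gnt3 (0.75), a glycosyltransferase gene, Hk1 (0.62), a hexokinase gene, Lrp5 (0.78), a Wnt coreceptor gene, and Cry2 (0.97), a clock gene, were higher. Umps (-0.80), of pyrimidine synthesis, Bmp6 (-0.99), a BMP ligand gene, Hes1 (-0.89), a Notch target, and Cox6c (-0.85), of the respiratory chain and on chromosome 15, were lower.

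**Figure D4:**
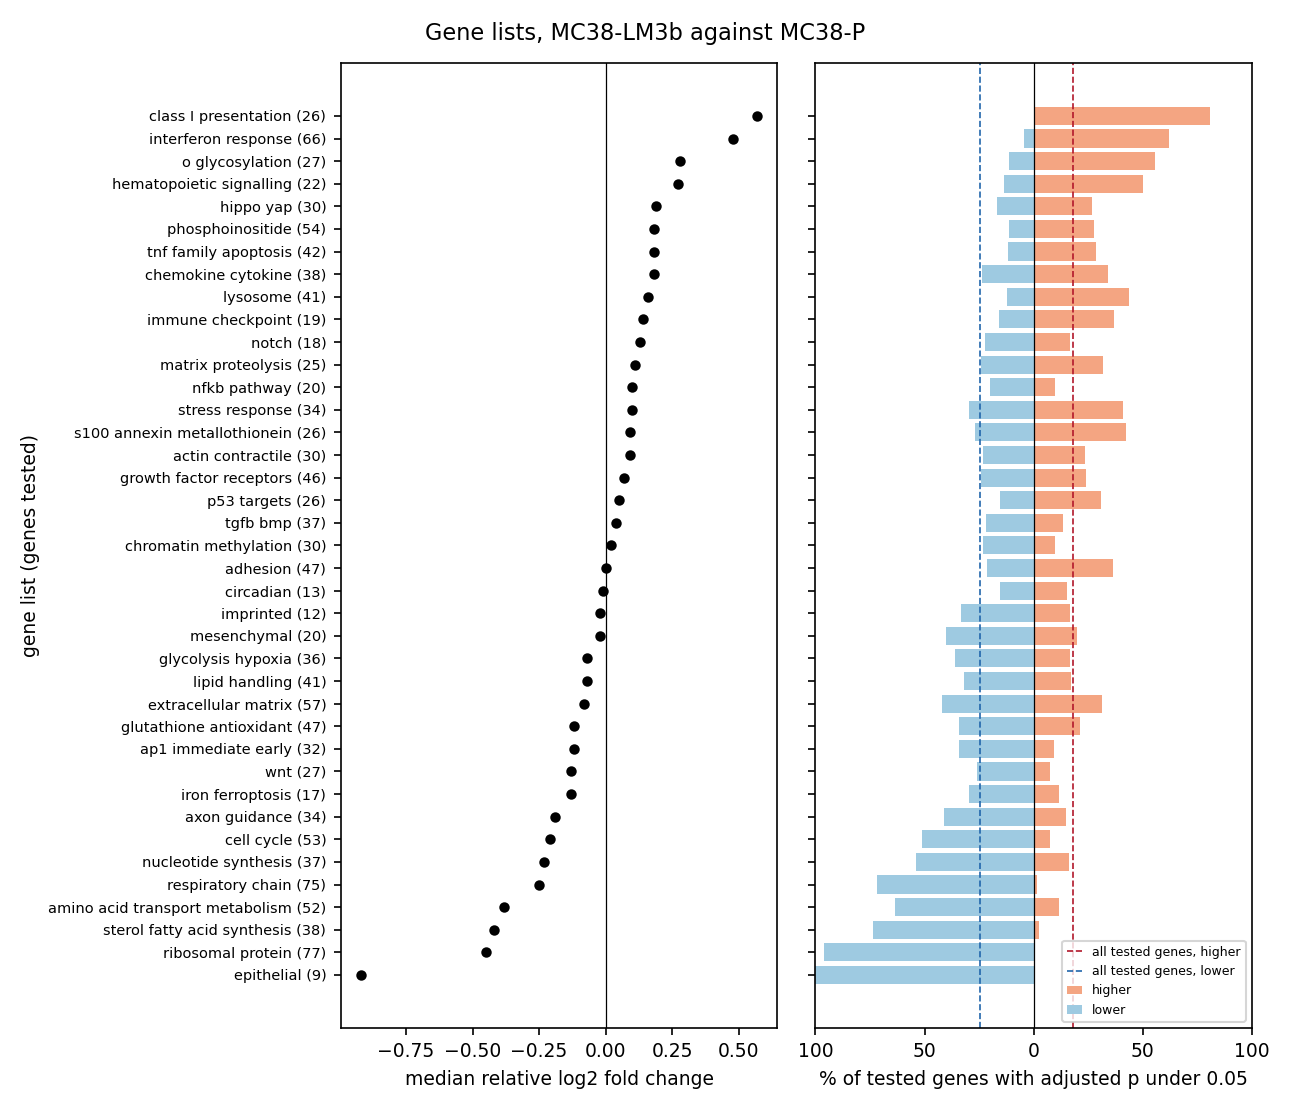
Gene lists with at least 9 tested genes (not every list drawn), ordered by their median relative log2 fold change (left), and the share of tested genes higher or lower at an adjusted p-value under 0.05 (right, higher to the right and lower to the left). Dashed lines are the shares over all tested genes, 18.1% higher and 24.7% lower. Class I presentation and the interferon response lie at the top and ribosomal protein and epithelial genes at the bottom.

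Genes of chromosome 15 were lower as a whole. Of 463 tested genes on this chromosome, 330 (71.3%) were lower and 16 higher, 50 of them over 2-fold lower and 4 over 2-fold higher, and 89.6% lay under the median of all tested genes. The median relative log2 fold change was -0.52, with quartiles of -0.77 and -0.24, against medians from -0.03 to 0.09 on the other chromosomes. The fall ran along the chromosome, with medians from -0.67 to -0.38 in 10 consecutive blocks of its genes by position. In MC38-P the median log2 level of chromosome 15 genes was higher than that of the other genes by 0.57, 0.61 and 0.59 in the 3 libraries. In MC38-LM3b the difference was -0.03, 0.01 and -0.04. The lines did not overlap. The median was -0.52 without MC38-P replicate 3 and -0.51 after correction for GC content and length, against -0.31 without the median subtraction and -0.30 with every gene kept. The level of a chromosome in RNA does not count its copies, which were not measured here.

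Named falls on this chromosome were Krt76, Foxred2, Ccn4, Sqle, Ndrg1, a stress and differentiation gene (-1.16), Cyc1, cytochrome c1 of the respiratory chain, Ly6c1, a surface protein (-1.19), Adsl, an enzyme of purine synthesis (-1.04), and Pycrl, an enzyme of proline synthesis (-1.01). Cyc1 went from 252, 245 and 258 TPM to 119, 114 and 124 TPM (-1.28, SE 0.06). Adsl, Pycrl, Rpl8 and Rpl30 were within 2-fold in 3 to 7 alternatives, and Sqle, Ndrg1 and Ly6c1 in 1.

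**Figure D5:**
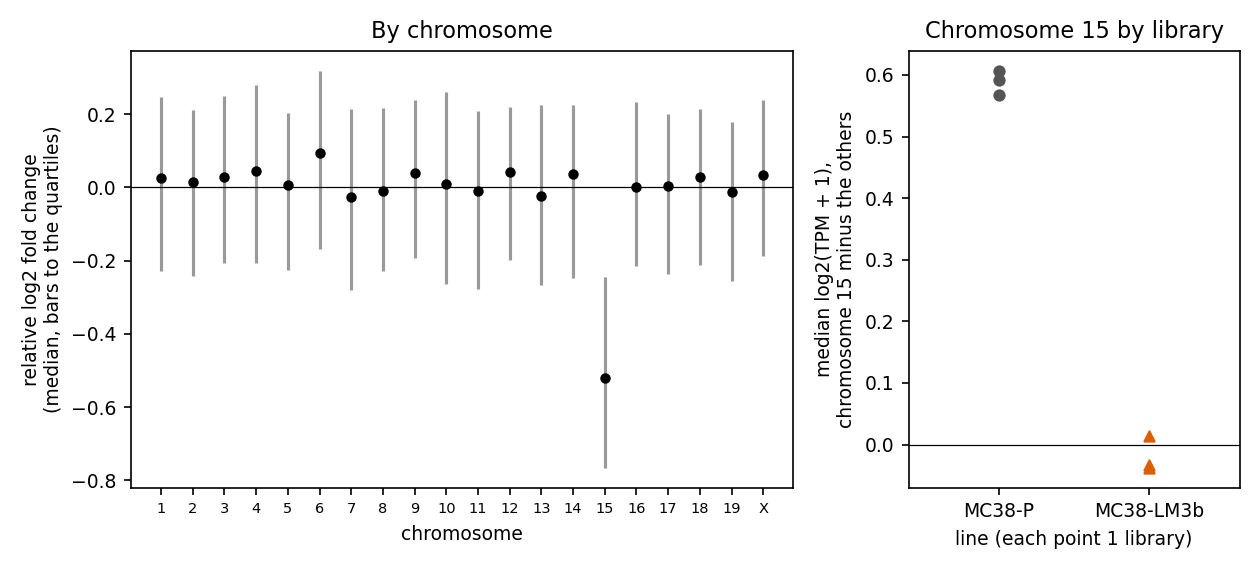
Left, median relative log2 fold change of the tested genes of each chromosome, with bars to the quartiles. Right, for each of the 6 libraries, the median log2(TPM + 1) of chromosome 15 genes minus that of all other tested genes. Chromosome 15 stands at -0.52, and its excess in MC38-P, 0.57 to 0.61, is near 0 in MC38-LM3b.

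Few genes differed over 2-fold between the derivatives when read against the median difference. Between MC38-LM3b and MC38-LM3a, with 11287 genes tested and values relative to a median difference of 0.21, 2 genes were over 2-fold higher in MC38-LM3b (0.0177%) and 3 lower (0.0266%), while 833 passed the adjusted p-value at any size. A replicate block left 1 higher and 0 lower. No count was made without the subtraction of this median. Ly9 was not among the genes over 2-fold, yet it had 6.92, 6.5 and 8.16 TPM in MC38-LM3a, under every MC38-LM3b library (16.1 to 17.9 TPM). Luzp4, a gene of the X chromosome, had 0.17, 0 and 0.06 TPM in MC38-P, a mean of 0.25 TPM in MC38-LM3a and 3.34, 3.52 and 3.20 TPM in MC38-LM3b, so both other lines were near 0 (relative log2 difference from MC38-LM3a 1.597, adjusted p = 3.685e-04). Scarf1 had 5.20, 4.26 and 4.78 TPM in MC38-LM3b, against a mean of 1.27 TPM in MC38-LM3a and 0.42 TPM in MC38-P. Padi4 was lower in both derivatives than in MC38-P, with means of 12.3 TPM (MC38-LM3a) and 6.01 TPM (MC38-LM3b). Crip1 had means of 18.3 TPM (MC38-LM3a) and 10.6 TPM (MC38-LM3b). H2ac22, a replication-dependent histone without the usual poly(A) tail, was at 0, 0.79 and 0 TPM in MC38-LM3b and is uncertain in a poly(A) library. Both derivatives were compared with the same MC38-P libraries, so their other shared changes are not independent.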

How the data were processed

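Poly(A) RNA of 3 libraries per line was sequenced on the DNBSEQ platform, and the submitters' processing notes name HISAT and GRCm39. The deposited values are TPM per gene, which the authors computed, so depth is unknown and the count test of the study could not be repeated. Values were transformed to log2(TPM + 1), genes with at least 1 TPM in 3 of the 6 libraries were kept, and limma 3.58.1 (R 4.3.3) with a mean-variance trend compared the lines, with Benjamini-Hochberg adjustment over all tested genes. The median log2 fold change was subtracted. DEGs had an adjusted p-value under 0.05 and a relative change over 2-fold. MC38-LM3b and MC38-LM3a were compared in a model of all 9 libraries. On simulated data with changes of 1.5, 2 and 3 on the log2 scale, all beyond the DEG limit, 198, 200 and 200 of 200 changed genes were recovered, with at most 2 false calls. Smaller changes were not simulated. Noise was drawn independently for each gene and library, so the drift of MC38-P replicate 3 and the shift of chromosome 15 were not simulated either. The text names the 12 largest rises and falls, genes the study named, up to 4 DEGs per list and direction, or the 2 with the smallest adjusted p-value, DEGs between derivatives, and neighbours of these. Others with values (Cyp51, Slc7a11, Nid1, Col4a1, Snai2, Hspd1, Hspe1 and further members below 2-fold) were chosen after their values were seen. Members and lists were chosen with earlier results of these data known. Promoters were matched by symbol to RefSeq on GRCm38.p6, which is not the build of the files. Alternatives were other scalings, pseudocounts, filters, covariates and libraries left out. Some genes under 2-fold that the rule takes are not named, and a few genes are not reported here.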

Additional observations from a re-analysis of the deposited data

Results flagged for a closer look

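The genes over 2-fold apart between MC38-LM3b and MC38-LM3a differed by a limma test of that difference itself, over all 9 libraries. Luzp4 (relative log2 difference 1.597, adjusted p = 3.685e-04) and Scarf1 (1.13, adjusted p = 0.007005) were higher in MC38-LM3b. Padi4 (-1.13, adjusted p = 0.004588), Crip1 (-1.003, adjusted p = 0.03299) and H2ac22 (-1.41, adjusted p = 0.03892) were lower in MC38-LM3b. With each of the 9 libraries left out in turn, only Luzp4 kept an adjusted p-value under 0.05 in every setting, up to 0.006004. Padi4 lost it without MC38-LM3b replicate 1 (0.05856). Scarf1 lost it without MC38-LM3a replicate 1 (0.06813), MC38-LM3b replicate 1 (0.07837) and MC38-LM3b replicate 3 (0.05534). Crip1 kept it only without MC38-P replicate 1, MC38-P replicate 3 or MC38-LM3a replicate 3, and otherwise reached up to 0.2205. H2ac22 kept it only without MC38-P replicate 3 or MC38-LM3a replicate 3, and otherwise reached up to 0.1699. Crip1 was -0.67 without MC38-LM3b replicate 3, the library in which it was lowest. With a replicate block Luzp4 kept an adjusted p-value under 0.05 (0.01175). Padi4 (0.0665), Scarf1 (0.0665), Crip1 (0.0863) and H2ac22 (0.1116) lost it under the block.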

How the results depend on the processing

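Of all 409 DEGs, 282 stayed past both limits under every alternative in which they were tested (13 to 16 each), and 404 kept an adjusted p-value under 0.05 in all of these. Without the median subtraction 311 genes were higher and 134 lower over 2-fold, and 4752 and 1441 at any size. Genes higher at any size were 3058 after quantile normalization, 3107 with no filter (where DEGs turned to 229 higher and 181 lower), 3311 after GC and length correction and 1352 to 3234 with 1 library left out, the most without MC38-P replicate 3. A pseudocount of 0.1 gave 302 higher and 311 lower DEGs, and a minimum of 5 TPM gave 144 lower DEGs. The median log2 fold change was -0.016 with centred libraries, 0.016 after quantile normalization, 0.008 after GC and length correction and 0.133 to 0.263 with 1 library left out. The cause of these differences was not tested.

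Replicate numbers are shared between lines, but same-numbered libraries deviated together by correlations of only 0.061, 0.05 and 0.04, so the numbers were not taken to pair them. A replicate block gave 181 higher and 231 lower DEGs, 2225 and 2849 at any size, and with GC and length correction 3314 higher at any size with a median of 0.008. Between MC38-LM3b and MC38-LM3a the block left 1 higher DEG, Luzp4, and 0 lower, with 1 to 5 higher and 0 to 10 lower when 1 library was left out, the most without MC38-LM3a replicate 3. edgeR and DESeq2 were not run because they need counts. With TPM alone, the counting error of low genes is unknown.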

Other observations

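Cd99, a surface glycoprotein gene, varied more within the lines than most, with 52.6, 163 and 61.7 TPM in MC38-P and 93.3, 48.1 and 0 TPM in MC38-LM3b, and it did not pass the limma test (relative log2 fold change -2.51, adjusted p = 0.1392). It was chosen after its values were seen.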
